A study of Mus musculus with 16 samples.

Results

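The superoxide dismutases Sod1 and Sod2, the catalase gene Cat, the glutathione peroxidases Gpx1 and Gpx4 and the peroxiredoxins Prdx1, Prdx2, Prdx3, Prdx5 and Prdx6 are 10 mouse genes for enzymes that remove superoxide and peroxides. They were found by symbol in the deposited table of raw gene counts, which lists 23410 symbols, and each symbol matched 1 row. All 10 were among the 10080 genes with enough counts to be tested. The rule uses the gene names and no measured value, but the 10 genes were chosen with earlier results of these data known. Counts and medians set beside all genes below are therefore descriptions.

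The counts come from G1E-ER4 cells, a mouse erythroid precursor line that has no GATA1 of its own and expresses GATA1 joined to the hormone-binding domain of the estrogen receptor. Estradiol lets this fusion act in the nucleus. Per the labels, cells received beta-estradiol at 12.5, 25, 50, 75, 100, 150 or 200 nM, and cells at 0 nM carried the label control. Each of the 8 doses had 2 replicates, for 16 libraries. All groups were the same cell line and carried the same fusion, and all were grown with erythropoietin and stem cell factor in serum-supplemented medium. How long cells stayed in estradiol is not stated in the labels. The labels do not say that replicates were separate cultures, so p-values measure the spread between these samples, which may be technical.

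Superoxide dismutases turn superoxide into hydrogen peroxide, Sod1 with copper and zinc mainly in the cytosol and Sod2 with manganese in mitochondria. Catalase splits hydrogen peroxide, in many cell types mainly in peroxisomes. Glutathione peroxidases reduce peroxides with glutathione, and peroxiredoxins do so through a reactive cysteine that thioredoxin or glutathione restores. Red cells hold large amounts of heme iron and oxygen, and they are known for high amounts of peroxiredoxin 2, catalase and glutathione peroxidase 1.

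Gpx1 and Gpx4 are selenoproteins, in which a TGA codon is read as selenocysteine at the active site. The 30 bases around that codon are shown because this codon sets both enzymes apart from the other 8. They were read from the GENCODE M21 transcripts on GRCm38, 5′ to 3′ on the plus strand, and capitals mark the selenocysteine codon.
Gpx1, codon 47 in exon 1, codon at chr9:108339451-108339453: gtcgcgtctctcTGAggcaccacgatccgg
Gpx4, codon 73 in exon 3, codon at chr10:80054737-80054739: gtggcctcgcaaTGAggcaaaactgacgta
In both genes the codon is followed by ggc, a glycine codon.

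Library totals ran from 9393156 to 15802510 counts, with a median of 14341098.5. Expression is given as CPM, a gene's counts set relative to its library's total after scaling by the trimmed mean of M-values. The 14 erythroid markers in the table summed to 3588 to 3661 CPM at 0 nM and 34880 to 35600 CPM at 200 nM, and all 14 were higher at 200 nM. Gata1 counts can include the introduced fusion, so their level, 710.7 ± 62.2 CPM at 0 nM and 1643 ± 45.9 CPM at 200 nM (SD, n = 2), does not check the labels. The 12 megakaryocyte and platelet markers, 3 of them at 0 counts throughout, summed to 18.6 to 19.5 CPM at 0 nM and 673.3 to 693.9 CPM at 200 nM. The 14 macrophage and granulocyte markers, 6 of them at 0 counts throughout, summed to 0.6132 to 1.639 CPM at 0 nM and 4.661 to 5.344 CPM at 200 nM. The 8 lymphocyte markers did not pass 0.2764 CPM, and the 10 fibroblast and endothelial markers did not pass 1.054 CPM. The part of the megakaryocyte, macrophage and granulocyte genes in the results below was not tested. The globin genes took 0.151% ± 0.000212 of all counts at 0 nM and 5.851% ± 0.0474 at 200 nM (SD, n = 2), and the ribosomal precursor Rn45s took 9.572% ± 0.0566 and 14.96% ± 0.523. Library scaling mattered. Between 200 and 0 nM the median gene had a log2 fold change of 0.0173 with the scaling used and of -0.363 with library size alone. Scaling computed without Rn45s and globin genes gave -0.00998. The part of these genes in the difference was not tested. In bulk RNA, fewer cells of a type and less RNA per cell cannot be told apart.

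At 200 nM against 0 nM, 7 of the 10 defence genes rose, 2 fell and Prdx5 did not pass the threshold of an adjusted p under 0.05. Prdx2, Cat, Gpx1, Gpx4 and Prdx6 rose at least 2-fold, and Sod1 and Prdx3 rose by less. Prdx1 fell by 0.28 on the log2 scale (by 0.66 with library size alone) and Sod2 fell more than 2-fold. With library size alone Prdx6 rose by 0.753 on the log2 scale, less than 2-fold, and Gpx4 by 1.015. Of all tested genes, 40.5% were higher and 39.5% lower at this dose, so being called was common. With library size alone, 6 of the 10 were higher and 4 lower, beside 2819 higher and 5396 lower of all 10080 genes, against 4086 and 3977 with the scaling used. With the scaling used, a rise of at least 2-fold that passed the test was seen in 19.7% of all genes and in 5 of the 10. Such a fall was seen in 17.4% and in 1 of the 10. The median log2 fold change was 0.951 over the 10 genes, and 0.571 with library size alone. The 10 genes were also abundant, which gives small errors: Prdx2, Gpx1, Prdx6, Prdx3 and Sod1 ranked 17, 32, 41, 79 and 95 by mean CPM among the tested genes, and Prdx5 ranked lowest of the 10, at 3036. Every dose was compared with the same 0 nM libraries, so the comparisons below share their control.

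**Figure D1:**
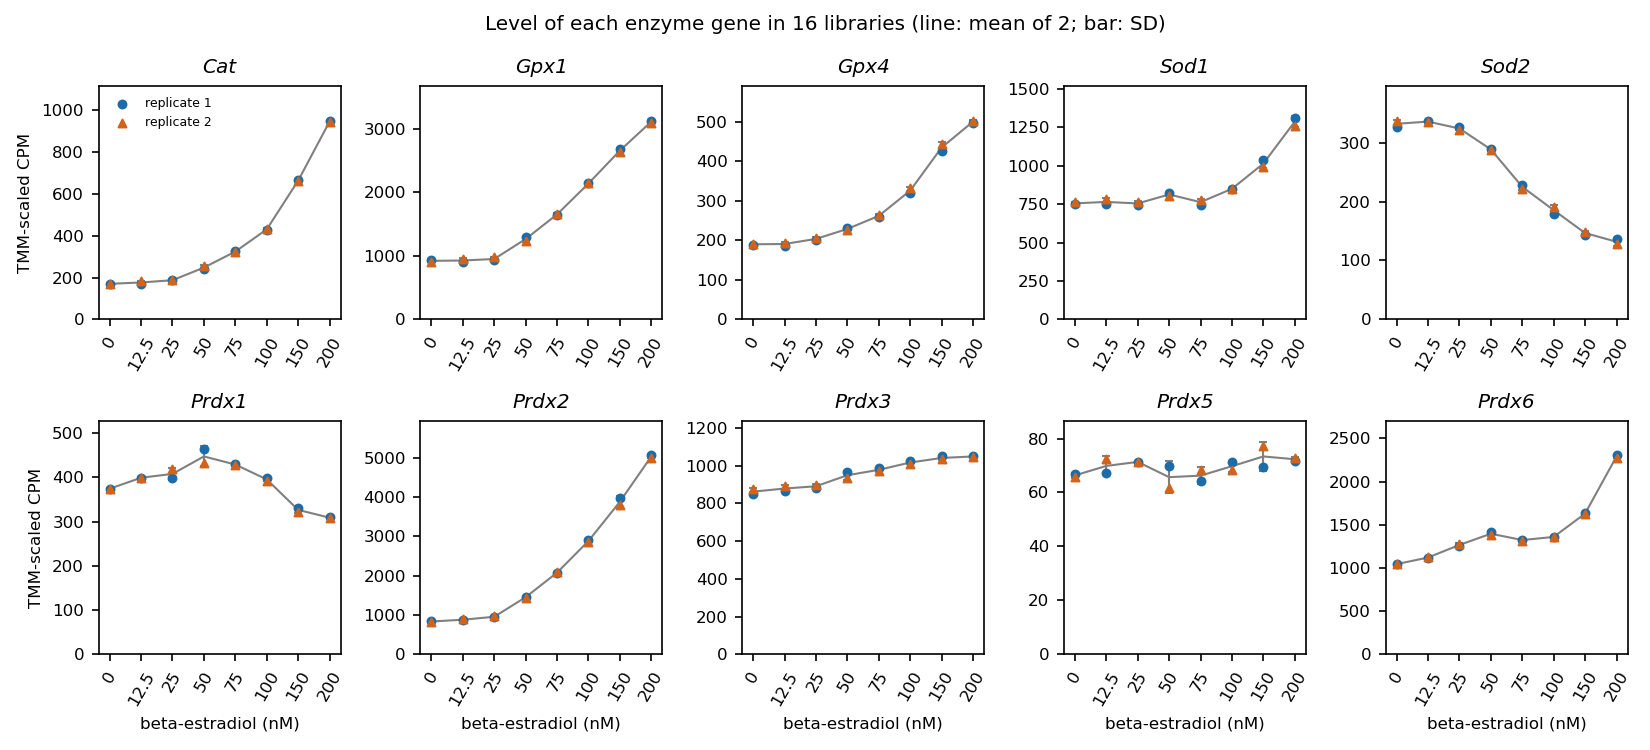
Expression of the 10 defence genes in each library (CPM) against the beta-estradiol dose in nM, with doses evenly spaced. Points are the 2 libraries at each dose and lines join their means; Prdx2 climbs from 841 and 826 CPM to 5067 and 4997 CPM, and Sod2 drops from 327 and 337 CPM to 136 and 127 CPM.

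Prdx2 encodes the abundant cytosolic peroxiredoxin of red cells, and it lies on chromosome 8, from 84969587 to 84974834 on the plus strand (GRCm38, as for all positions below). The 2 libraries held 841 and 826 CPM at 0 nM, 869 and 889 CPM at 12.5 nM, 946 and 961 CPM at 25 nM, 1460.3 and 1443 CPM at 50 nM, 2064 and 2089.9 CPM at 75 nM, 2902 and 2861 CPM at 100 nM, 3975 and 3786 CPM at 150 nM, and 5067 and 4997 CPM at 200 nM. The 2 libraries of each dose lay above both libraries of the dose below it at all 7 steps. The rise was 6.04-fold at 200 nM, a log2 fold change of 2.59 ± 0.028 (SE; edgeR quasi-likelihood test, adjusted p = 9.1e-51). This change was larger in size than that of 91.9% of tested genes. Every step from 12.5 nM upward was called, beginning with 0.12 ± 0.027 on the log2 scale between 12.5 and 25 nM (edgeR adjusted p = 0.0116). This first step was not called with library size alone (0.09, adjusted p = 0.113).

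Cat encodes catalase and lies on chromosome 2, from 103453849 to 103485160 on the minus strand. Its libraries held 168 and 172 CPM at 0 nM, 171 and 182 CPM at 12.5 nM, 188 and 187 CPM at 25 nM, 239 and 256 CPM at 50 nM, 326 and 321 CPM at 75 nM, 427 and 433 CPM at 100 nM, 664 and 661 CPM at 150 nM, and 946 and 942 CPM at 200 nM. The lowest 2 doses overlapped and every later dose lay above the one before it. Cat rose 5.56-fold at 200 nM, by 2.47 ± 0.036 on the log2 scale (edgeR adjusted p = 2.27e-45). The gain per step stayed high at the top of the range, with log2 differences of 0.62 ± 0.034 from 100 to 150 nM and 0.51 ± 0.033 from 150 to 200 nM (edgeR adjusted p = 2.79e-20 and 1.89e-17).

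Gpx1, the cytosolic and mitochondrial glutathione peroxidase, lies on chromosome 9, from 108338903 to 108340343 on the plus strand. It stood at 938 and 906 CPM at 0 nM, 905 and 949.8 CPM at 12.5 nM, 928 and 975 CPM at 25 nM, 1302 and 1229 CPM at 50 nM, 1642 and 1665 CPM at 75 nM, 2139 CPM in both libraries at 100 nM, 2682 and 2633 CPM at 150 nM, and 3129.9 and 3097 CPM at 200 nM. The lowest 3 doses overlapped, and the libraries from 50 nM upward lay above all of them. Gpx1 was 3.38-fold higher at 200 nM, a log2 fold change of 1.76 ± 0.03 (edgeR adjusted p = 1.88e-42). Its largest step was from 25 to 50 nM and its smallest called step was the last, 0.23 ± 0.029 on the log2 scale (edgeR adjusted p = 7.68e-09).

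Gpx4 reduces lipid peroxides within membranes and lies on chromosome 10, from 80047166 to 80056439 on the plus strand. It held 189 and 191 CPM at 0 nM, 187 and 195 CPM at 12.5 nM, 201 and 206 CPM at 25 nM, 231 and 227 CPM at 50 nM, 259 and 265 CPM at 75 nM, 319 and 333 CPM at 100 nM, 426 and 444 CPM at 150 nM, and 498 and 503 CPM at 200 nM. From 25 nM upward each dose lay above the dose before it. At 200 nM it had risen 2.63-fold, a log2 fold change of 1.40 ± 0.037 (edgeR adjusted p = 1.28e-34).

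Prdx6, a peroxiredoxin with a single reactive cysteine that also acts on phospholipid peroxides, lies on chromosome 1, from 161240112 to 161251219 on the minus strand. Its libraries held 1044 CPM each at 0 nM, 1117 and 1123 CPM at 12.5 nM, 1253 and 1278 CPM at 25 nM, 1415 and 1376 CPM at 50 nM, 1328 and 1316 CPM at 75 nM, 1363 and 1354 CPM at 100 nM, 1634 and 1624 CPM at 150 nM, and 2305 and 2276 CPM at 200 nM. The level climbed to 50 nM, stood slightly lower at 75 and 100 nM, and climbed again. At 25 nM Prdx6 had the largest change of the 10 genes, 0.28 ± 0.026 on the log2 scale (edgeR adjusted p = 4.97e-11). Between 50 and 75 nM it fell by 0.08 ± 0.026 (edgeR adjusted p = 0.0186), and between 75 and 100 nM the difference of 0.04 ± 0.026 did not pass (edgeR adjusted p = 0.294). The step from 150 to 200 nM, 0.49 ± 0.026, was its largest (edgeR adjusted p = 2.62e-20). At 200 nM it was 2.19-fold higher than at 0 nM, a log2 fold change of 1.13 ± 0.026 (edgeR adjusted p = 7.95e-37).

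Sod1, the copper and zinc superoxide dismutase, lies on chromosome 16, from 90220754 to 90226329 on the plus strand. It held 749.7 and 761 CPM at 0 nM, 748 and 781 CPM at 12.5 nM, 743 and 767 CPM at 25 nM, 821 and 806 CPM at 50 nM, 748 and 779 CPM at 75 nM, 848 and 852 CPM at 100 nM, 1036 and 993 CPM at 150 nM, and 1313 and 1262 CPM at 200 nM. The libraries at 0, 12.5, 25 and 75 nM overlapped, while those at 100 nM and above lay higher than all of these. Like Prdx6, Sod1 fell between 50 and 75 nM, by 0.09 ± 0.031 on the log2 scale (edgeR adjusted p = 0.0174). At 75 nM it did not differ from 0 nM by the test, with a log2 fold change of 0.01 ± 0.031 (edgeR adjusted p = 0.704), and with library size alone it was lower, at -0.11 (adjusted p = 0.00233). At 200 nM it was 1.70-fold higher, 0.77 ± 0.030 on the log2 scale (edgeR adjusted p = 2.48e-27). The rise at 50 nM, 0.11 ± 0.030 (edgeR adjusted p = 0.00494), was lost without the first library at 0 nM (adjusted p = 0.0699) and with library size alone (adjusted p = 0.364). Ccs, the chaperone that delivers copper to Sod1, rose from 48.18 ± 3.32 to 124.2 ± 1.48 CPM (SD, n = 2) between 0 and 200 nM, 1.36 ± 0.067 on the log2 scale (edgeR adjusted p = 1.49e-23).

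Sod2, the manganese superoxide dismutase, lies on chromosome 17, from 13006846 to 13040063 on the plus strand. Its libraries held 327 and 337 CPM at 0 nM, 336 and 335 CPM at 12.5 nM, 326 and 321 CPM at 25 nM, 289.8 and 287 CPM at 50 nM, 229 and 221 CPM at 75 nM, 179 and 191 CPM at 100 nM, 144 and 149 CPM at 150 nM, and 136 and 127 CPM at 200 nM. From 25 nM upward each dose lay below the dose before it. Sod2 was 2.52-fold lower at 200 nM, a log2 fold change of -1.33 ± 0.041 (edgeR adjusted p = 1.17e-31). It was the only gene of the 10 called lower at 50, 75 and 100 nM, whereas with library size alone Sod1 was also lower at 75 nM and Prdx1 at 100 nM.

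Prdx1, a cytosolic and nuclear peroxiredoxin closely related to Prdx2, lies on chromosome 4, from 116685544 to 116700822 on the plus strand. It held 375 and 374 CPM at 0 nM, 399 CPM in both libraries at 12.5 nM, 397 and 418 CPM at 25 nM, 463 and 431 CPM at 50 nM, 429.7 and 428 CPM at 75 nM, 399 and 392 CPM at 100 nM, 331 and 321 CPM at 150 nM, and 309.9 and 308 CPM at 200 nM. The libraries at 12.5 to 100 nM lay above those at 0 nM, and those at 150 and 200 nM lay below. At 50 nM Prdx1 was higher than at 0 nM by 0.26 ± 0.034 and higher than at 200 nM by 0.53 on the log2 scale. The larger of the 2 p-values, adjusted over all genes, was 8.23e-07 (edgeR). A peak by this rule was called in 1.30% of genes at 50 nM and in 1.82% at 75 nM, where Prdx1 was also called (edgeR adjusted p = 9.5e-05). None of the other 9 genes was called as a peak or a dip at any of the 6 intermediate doses, where 4.94% of all genes were called at 1 dose or more. With library size alone the peak of Prdx1 was called at 50 nM only, and Sod1 was called as a dip at 75 nM. At 200 nM Prdx1 had fallen below 0 nM, by 0.28 ± 0.036 on the log2 scale (edgeR adjusted p = 1.64e-09).

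Prdx3, the mitochondrial peroxiredoxin, lies on chromosome 19, from 60864051 to 60874556 on the minus strand. It moved from 850.3 and 875 CPM at 0 nM to 966 and 932 CPM at 50 nM, 1024 and 1009.5 CPM at 100 nM, and 1052 and 1047 CPM at 200 nM. The rise of 1.22-fold, 0.28 ± 0.029 on the log2 scale (edgeR adjusted p = 2.02e-12), turned into a decrease of -0.10 with library size alone (adjusted p = 0.00118). Its direction therefore depends on how libraries are scaled.

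Prdx5, found in mitochondria, peroxisomes and the cytosol, lies on chromosome 19, from 6906697 to 6910106 on the minus strand. Its 16 libraries ran from 61.5 CPM at 50 nM to 77.2 CPM at 150 nM, and the other library of each of these doses, at 69.9 and 69.5 CPM, lay among the rest. No dose stood apart from all others. At 200 nM the log2 fold change was 0.12 ± 0.066 (edgeR adjusted p = 0.0793), and the sign was negative with library size alone, at -0.26 (adjusted p = 0.000496). In the F test over all 8 doses Prdx5 was the only gene of the 10 not called (edgeR adjusted p = 0.152), while 86.3% of all genes were called. All 10 were called in that test with library size alone and without the first library at 50 nM.

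Counts by dose placed most of the changes above 25 nM. At 12.5 nM none of the 10 genes was called, beside 0.506% of all genes in either direction, and the smallest adjusted p was that of Prdx6 (0.0637, edgeR). At 25 nM, 4 of the 10 were called, beside 4.02% of all genes; Prdx6, Prdx2, Cat and Prdx1 were all higher. The calls of Cat and Prdx1 at 25 nM were weak: Cat lost its call without any of the 4 libraries compared (edgeR adjusted p from 0.0785 to 0.193), and Prdx1 lost its call without either library at 0 nM or the second library at 25 nM (edgeR adjusted p from 0.163 to 0.359). Both calls were also lost with library size alone (adjusted p = 0.177 and 0.224). At 50 nM, 8 of the 10 were higher and 1 lower, beside 18.8% and 14.7% of all genes. At 75 nM, 7 genes were higher and 1 lower (29.0% and 26.9% of all genes). A dose of 100 nM gave 8 higher and 1 lower (34.1% and 32.5%). A dose of 150 nM gave 7 higher and 2 lower (37.7% and 36.6%). At 100 nM the call of Prdx1, 0.08 ± 0.035 on the log2 scale (edgeR adjusted p = 0.0414), was lost without any of the 4 libraries compared. It was also lost with DESeq2 (adjusted p = 0.139), with DESeq2 size factors in edgeR (0.081), with TMM computed without Rn45s and globin genes (0.0989) and with no filter on low counts (0.0945), so that 7 of the 10 were higher under each of these. With library size alone 5 of the 10 were higher and 2 lower at this dose.

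**Figure D2:**
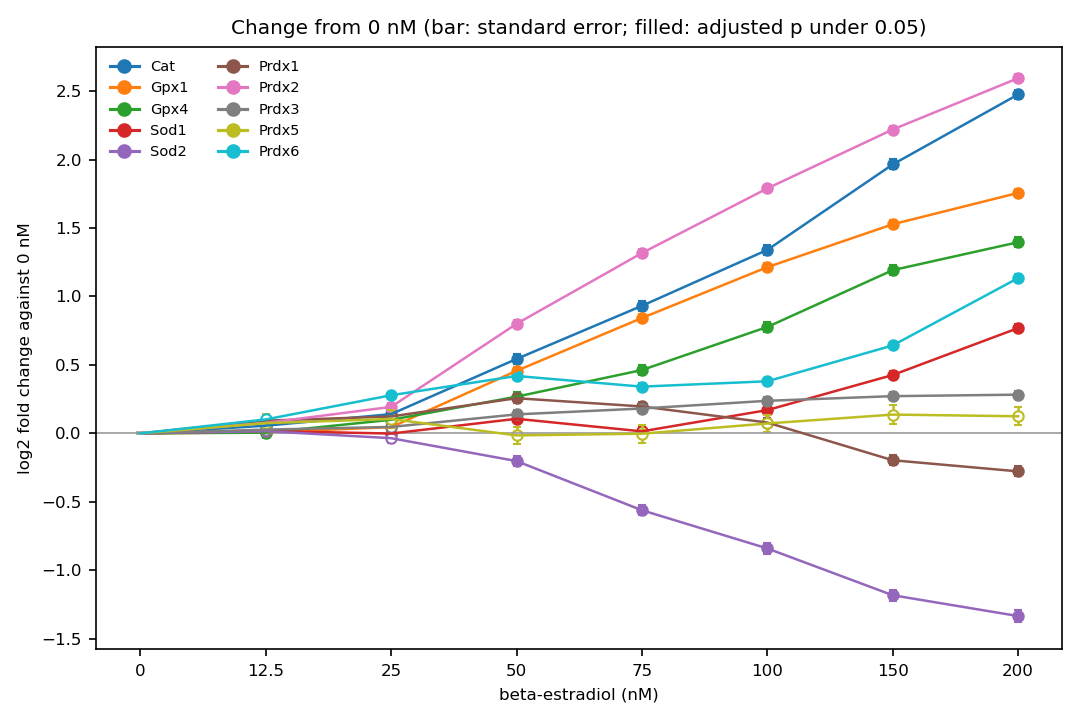
Log2 fold change of each defence gene against 0 nM at the 7 doses of beta-estradiol, with bars of 1 standard error; filled points have an edgeR adjusted p under 0.05. Prdx2 and Cat reach 2.59 and 2.47 on the log2 scale at 200 nM, Prdx1 crosses from 0.26 at 50 nM to -0.28, and Sod2 ends at -1.33.

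Between neighbouring doses, 40 of 70 tests of the 10 genes were called, and the share of all genes called is given with each step. From 0 to 12.5 nM none of the 10 was called, beside 0.506% of all genes in either direction. From 12.5 to 25 nM, 2 genes rose, Prdx6 and Prdx2, and none fell (0.893% and 0.198% of all genes). From 25 to 50 nM, 8 rose and Sod2 fell (14.1% and 12.1% of all genes), and the rise of Prdx3 was not called with library size alone (adjusted p = 0.0563). The next step, 50 to 75 nM, raised Prdx2, Cat, Gpx1 and Gpx4 and lowered Sod2, Sod1 and Prdx6 (16.6% and 15.8% of all genes), and with library size alone also Prdx1 (adjusted p = 0.00809). From 75 to 100 nM, 5 rose and 2 fell (14.7% and 12.8%). From 100 to 150 nM, 6 rose and 2 fell (20.6% and 20.2%). In the last step Prdx2, Cat, Gpx1, Gpx4, Sod1 and Prdx6 rose and Sod2 fell (19.4% and 19.9%), and with library size alone Prdx1 and Prdx3 also fell (adjusted p = 2.55e-05 and 0.00346).

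The dose at which a gene had covered the midpoint of its log2 change between 0 and 200 nM could be read for 5 genes without a called step in the opposite direction and with a change of at least 1.5-fold. It was 74.0 nM for Prdx2, with a range of 73.0 to 75.0 nM over the 256 series that take 1 library per dose. Gpx1 followed at 77.4 nM (75.6 to 79.0 nM). Sod2, which fell, reached its midpoint at 84.1 nM (78.8 to 90.2 nM). Cat and Gpx4 both stood at 93.7 nM, with ranges of 92.5 to 94.9 nM and 90.8 to 96.6 nM. The ranges of Prdx2 and Gpx1 did not overlap each other or those of Cat and Gpx4, while Cat and Gpx4 overlapped. With library size alone the values were 70.2, 72.2, 87.6, 92.4 and 91.6 nM for Prdx2, Gpx1, Sod2, Cat and Gpx4.

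As a share of all raw counts, the 10 genes together went from 0.6094% and 0.6107% in the libraries at 0 nM to 0.7563% and 0.7412% in those at 50 nM, and on to 1.254% and 1.233% in those at 200 nM. The share is taken within each library, globin and Rn45s counts included. Within the sum, Prdx2 grew from 15.02% to 34.16% and Gpx1 from 16.61% to 21.14%. Catalase went from 3.061% to 6.411%, and Gpx4 stayed near its share, at 3.427% and 3.399%. The share of Prdx6 moved from 18.81% to 15.55%, that of Sod1 from 13.61% to 8.74% and that of Prdx3 from 15.54% to 7.122%. Prdx1 dropped from 6.742% to 2.096% and Sod2 from 5.979% to 0.8942%. Prdx5 was the least counted of the 10, with 1.195% at 0 nM and 0.491% at 200 nM.

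**Figure D3:**
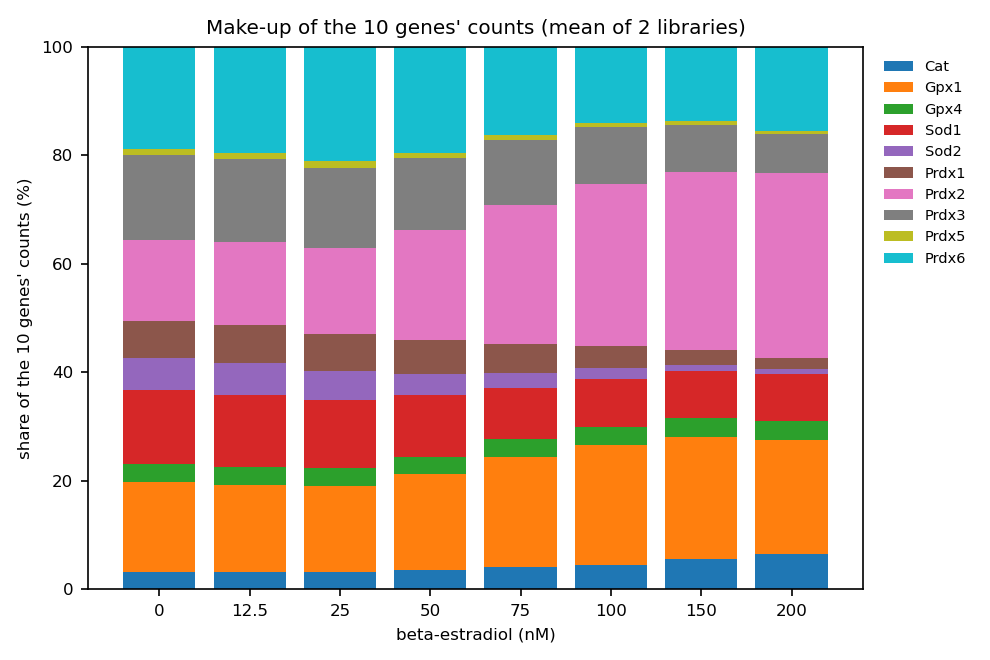
Mean share of each gene in the summed raw counts of the 10 defence genes, in percent, at each beta-estradiol dose (mean of 2 libraries). Prdx2 widens from 15.02% at 0 nM to 34.16% at 200 nM, and Sod2 narrows from 5.979% to 0.8942%.

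Ratios of raw counts inside a library do not depend on how libraries are scaled. For each Prdx1 count there were 2.23 Prdx2 counts at 0 nM, 7.29 at 100 nM and 16.3 at 200 nM. The log2 ratio of this pair was 1.16 ± 0.016 at 0 nM and 4.03 ± 0.0066 at 200 nM (SD, n = 2). The ratio of Sod1 to Sod2 counts moved from 2.28 to 9.78, with log2 values of 1.19 ± 0.015 and 3.29 ± 0.030 (SD, n = 2). In both pairs the libraries at 0 and 200 nM were far apart relative to their spread. The ratio of Gpx1 to Gpx4 was 4.85 at 0 nM, 6.56 at 100 nM and 6.22 at 200 nM, with log2 values of 2.28 ± 0.047, 2.71 and 2.64 ± 0.022 (SD, n = 2). The ratio of Prdx3 to Prdx5 moved little by comparison, from 13.0 at 0 nM to 14.5 at 200 nM, with log2 values of 3.70 ± 0.046 and 3.86 ± 0.023 (SD, n = 2), and its libraries at these 2 doses did not overlap.

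**Figure D4:**
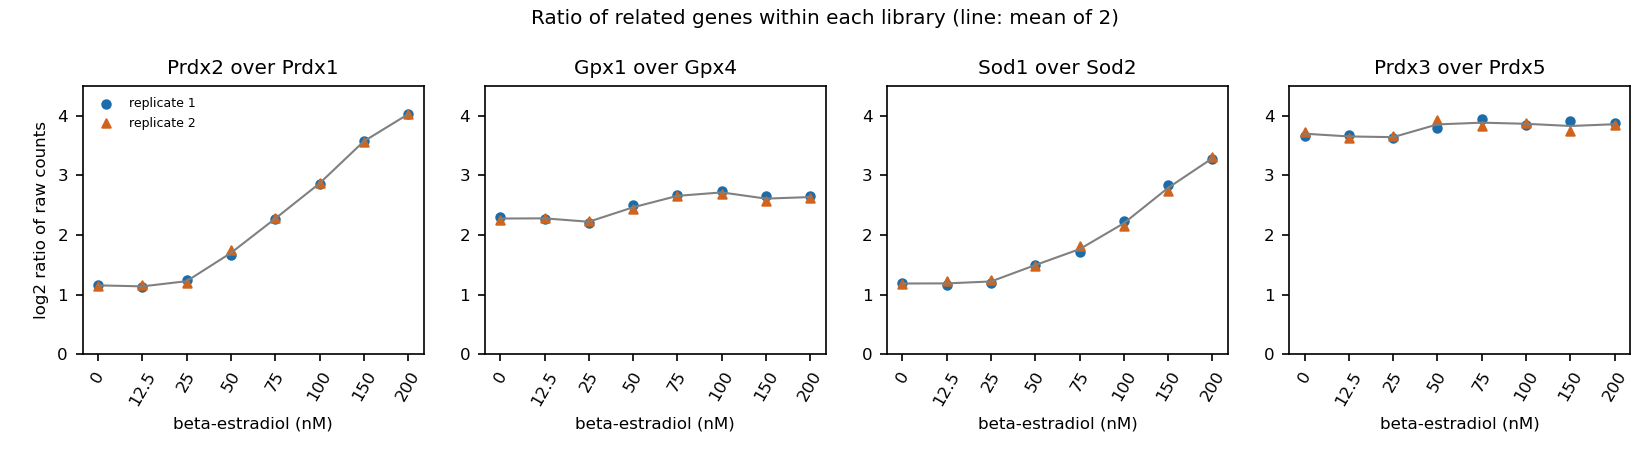
Log2 ratio of raw counts within each library for 4 pairs of related enzymes against the beta-estradiol dose in nM; points are the 2 libraries at each dose and lines join their means. Prdx2 over Prdx1 goes from 1.16 to 4.03 and Sod1 over Sod2 from 1.19 to 3.29, while Prdx3 over Prdx5 goes from 3.70 to 3.86.

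Levels of different genes were compared per kilobase of merged annotated exons. At 0 nM the order was Gpx1 (639.8 CPM per kilobase), Prdx3 (583.5), Prdx2 (273.3), Prdx6 (217.3), Sod1 (190.3), Prdx1 (123.0), Gpx4 (110.3), Cat (65.0), Sod2 (33.15) and Prdx5 (31.01). At 200 nM Gpx1 remained at the top with 2160.0 CPM per kilobase, followed by Prdx2 (1650.0), Prdx3 (709.8), Prdx6 (476.8), Cat (361.4), Sod1 (324.3), Gpx4 (290.4), Prdx1 (101.5), Prdx5 (33.81) and Sod2 (13.16). Neighbours in these orders did not overlap between libraries. Over merged exons the largest move was that of Cat, from rank 8 to rank 5, and Sod2 became the lowest. The order depends on the length used. Over the principal coding transcript alone, a choice made after seeing the data, Sod1 was the highest at 0 nM with 1179 CPM per kilobase. Prdx2 was then the highest at 200 nM with 3122. By that length Prdx2 made the largest move, from rank 4 to rank 1, and Cat went only from rank 8 to rank 7. Merged exons of Sod1 span 3970 bases because of a transcript that keeps introns, against 641 bases in its principal transcript.

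Genes that supply or regulate these enzymes were described in 6 lists by their counts at 200 nM against 0 nM. All genes had a median log2 fold change of 0.0173, with 40.5% higher and 39.5% lower. With library size alone all genes had a median of -0.363, with 2819 higher and 5396 lower of 10080. The splits with library size alone below are to be read beside these values. In the list of glutathione and thioredoxin supply, 11 of the 21 tested genes rose, 4 fell and 6 did not pass, with a median of 0.334. The thioredoxin genes that serve peroxiredoxins were among those that fell: cytosolic Txn1 went from 475.3 ± 4.91 to 221.5 ± 4.3 CPM (SD, n = 2; log2 fold change -1.10 ± 0.034, edgeR adjusted p = 1.62e-31). Mitochondrial Txn2 fell by 0.52 ± 0.038 on the log2 scale (edgeR adjusted p = 3.31e-17). The thioredoxin reductase Txnrd1 was at 184.6 and 182.2 CPM and did not pass (edgeR adjusted p = 0.711). Slc3a2, a subunit that the cystine transporter shares with other transporters, did not pass either (edgeR adjusted p = 0.235). Both were lower with library size alone, at -0.40 and -0.34 on the log2 scale (edgeR adjusted p = 9.9e-11 and 3.03e-12). These 4 genes were named for their high level, and the 11 that rose were not among them. Slc7a11, the other cystine transporter subunit, was among the 11 and rose by 0.93 ± 0.19 on the log2 scale (edgeR adjusted p = 2.21e-05; 0.00866 with library size alone). With library size alone the split of this list was 10 higher and 8 lower, with a median of -0.0471 beside -0.363 over all genes.

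Of the regulators of the oxidant response and their targets, 10 of 17 rose, 5 fell and 2 did not pass, with a median of 0.71 (8 higher and 6 lower with library size alone). Blvrb, biliverdin reductase B, had a level of 582.5 ± 0.913 CPM at 0 nM and 3150 ± 33.1 CPM at 200 nM (SD, n = 2; log2 fold change 2.43 ± 0.032, edgeR adjusted p = 1.09e-46). Foxo3, a transcription factor known to act on antioxidant genes in red cell precursors, rose from 47.68 ± 5.51 to 298.2 ± 7.42 CPM (SD, n = 2; log2 fold change 2.64 ± 0.056, edgeR adjusted p = 1.58e-38). Nfe2l2, which encodes NRF2, rose from 154.3 ± 6.2 to 269.3 ± 3.03 CPM (SD, n = 2; log2 fold change 0.80 ± 0.043, edgeR adjusted p = 2.64e-22). Park7 went the other way and fell by 0.60 on the log2 scale (edgeR adjusted p = 2.27e-19).

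The list of selenoprotein synthesis, which holds both synthesis factors and selenoproteins other than Gpx1 and Gpx4, had 5 of 14 tested genes higher, 7 lower and 2 not passing, with a median of -0.131. The selenophosphate synthetase Sephs2 fell from 233.3 to 111.2 CPM (log2 fold change -1.07 ± 0.054, edgeR adjusted p = 1.66e-18). Its relative Sephs1 fell from 127.8 to 67.68 CPM (edgeR adjusted p = 7.06e-20), while the selenoprotein gene Sepw1 rose from 221 to 348.5 CPM (edgeR adjusted p = 8.65e-21) and Sep15 fell by 0.17 on the log2 scale (edgeR adjusted p = 0.000171). Gpx1 and Gpx4 were higher at this dose, at which Sephs2 and Sephs1 were lower and 5 of the 14 tested genes were higher. A link between these changes was not tested. With library size alone the split was 4 higher and 9 lower.

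Peroxisomes are the compartment of catalase in many cell types, and its place in these cells was not measured. The list of peroxisome assembly and oxidases had 7 of 19 tested genes higher, 8 lower and 4 not passing, with a median of -0.068 (5 higher and 11 lower with library size alone). The import genes differed: Pex19 rose from 52.21 to 102.6 CPM (edgeR adjusted p = 1.26e-19) and Pex2 fell from 77.88 to 60.35 CPM (edgeR adjusted p = 6.03e-07). Pex5 did not pass (edgeR adjusted p = 0.587), but with library size alone it was lower, at -0.33 on the log2 scale (edgeR adjusted p = 0.000855). Of the enzymes that make superoxide or peroxide, 5 of 10 tested genes rose, 4 fell and 1 did not pass, with a median of 0.143 (4 higher and 4 lower with library size alone). Rac2, a subunit of the phagocyte oxidase complex, rose from 486.2 to 1203 CPM (edgeR adjusted p = 5.03e-37), and Cyba rose from 21.28 to 28.42 CPM (edgeR adjusted p = 0.000388; 0.763 with library size alone). The catalytic subunit Cybb of that complex had 0.03153 CPM at 0 nM and 0.04237 CPM at 200 nM and was not tested. Maoa fell from 36.34 to 3.246 CPM (edgeR adjusted p = 6.86e-22), and Ero1l fell by 0.19 on the log2 scale (edgeR adjusted p = 0.00091).

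Of 10 further genes, the rest of these families and Ccs, only Prdx4 and Ccs passed the filter on low counts. Prdx4, the peroxiredoxin of the endoplasmic reticulum, fell from 105.4 ± 0.972 to 45.82 ± 2.96 CPM (SD, n = 2; log2 fold change -1.20 ± 0.066, edgeR adjusted p = 8.79e-22). The secreted peroxidase Gpx3 was at 0.03066 and 0.1345 CPM.

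**Figure D5:**
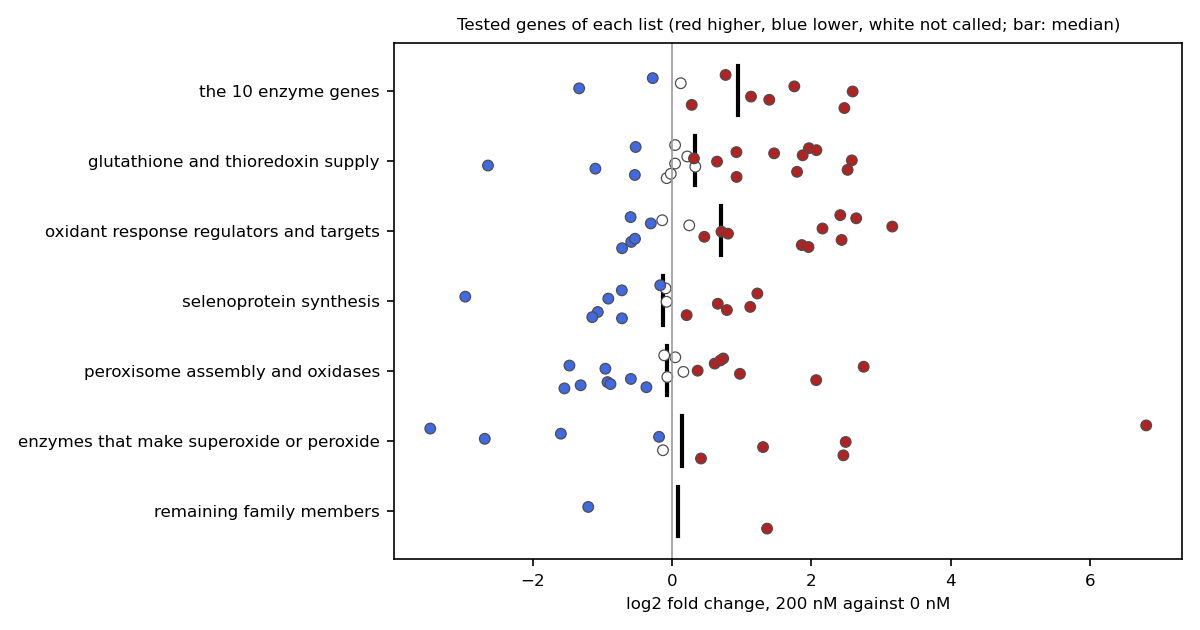
Log2 fold changes at 200 nM against 0 nM of the 10 defence genes and of the genes tested in each of the 6 lists; each point is a gene, red if called higher, blue if called lower and white if not called, and each bar is the median. The median is 0.951 for the defence genes, 0.334 for glutathione and thioredoxin supply and -0.131 for selenoprotein synthesis.

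Genes with the most similar dose pattern were found by the root mean square difference of log2 CPM over the 16 libraries, each gene set to 0 at its own mean at 0 nM, among 9340 genes. The nearest to Prdx2 were Stradb (0.063) and Foxo3 (0.069), and the nearest to Cat were Zc3hav1 (0.047) and Atp6v0b (0.057). Gpx1 had Gcdh (0.060) among its nearest. Gpx4 was nearest to Taldo1 (0.049), an enzyme of the pentose phosphate pathway, and Rac2 (0.050). The nearest genes were Mtmr6 (0.051) and Pdcd6ip (0.053) for Sod1, and Cpd (0.060) and Rbm28 (0.062) for Sod2. Prdx1 had Foxred1 (0.061) and Gtf3c5 (0.065). Prdx3 was nearest to the ribosomal protein gene Rps3 (0.028) and Vcp (0.029), and Prdx5 to Sf3b5 (0.056) and Commd1 (0.059). These 4 genes changed sign with library size alone as Prdx3 and Prdx5 did. That scaling shifts all genes by nearly the same amount, so genes picked for similar small rises had to change sign together. Prdx6 had the most distant neighbours, Spty2d1 (0.095) and Lcmt1 (0.10). Among the 10 genes themselves, the closest pairs were Prdx3 with Prdx5 (0.14) and Prdx3 with Sod1 (0.19), and Cat with Prdx2 stood at 0.25.

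Promoter sequence is shown for 4 genes with different dose patterns, Cat and Gpx4, which rose, Prdx1, which peaked, and Sod2, which fell. RefSeq (GRCm38.p6) gave 250 bases before the start of 9 of the 10 genes, in 12 windows; Prdx6 had no entry. The stretches below are the parts of those windows that no annotated exon covers, 5′ to 3′ on the strand of the gene, and capitals mark matches to 6 motifs on either strand. AGATAA and TGATAA are sites of GATA factors. CCACCC is a site of KLF factors, and CCAAT is a common promoter element. The antioxidant response element was searched as TGACNNNGC. GTAAACA is a site of FOXO factors.
Cat, chr2:103485161-103485403, minus strand: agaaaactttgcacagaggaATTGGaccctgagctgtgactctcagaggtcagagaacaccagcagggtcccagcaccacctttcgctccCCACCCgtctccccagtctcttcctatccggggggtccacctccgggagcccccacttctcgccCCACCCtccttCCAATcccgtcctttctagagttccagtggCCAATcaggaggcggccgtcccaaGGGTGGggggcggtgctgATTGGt
Gpx4, the third annotated start, chr10:80053409-80053487, plus strand: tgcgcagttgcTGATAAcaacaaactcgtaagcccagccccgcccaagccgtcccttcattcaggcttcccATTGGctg
Prdx1, chr4:116685349-116685543, plus strand: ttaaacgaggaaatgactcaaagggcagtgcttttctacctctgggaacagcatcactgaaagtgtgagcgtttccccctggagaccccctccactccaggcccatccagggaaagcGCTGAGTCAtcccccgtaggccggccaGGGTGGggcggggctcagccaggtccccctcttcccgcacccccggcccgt
Sod2, chr17:13007589-13007816, plus strand: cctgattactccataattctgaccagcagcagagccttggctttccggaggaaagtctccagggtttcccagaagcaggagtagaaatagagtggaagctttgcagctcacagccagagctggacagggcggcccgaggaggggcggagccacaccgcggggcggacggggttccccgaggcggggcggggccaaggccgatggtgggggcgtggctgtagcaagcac
The Gpx4 and Sod2 stretches lie inside the span of their genes, between exons, because other transcripts start further upstream. The Cat stretch holds 3 matches to CCACCC and 4 to CCAAT. Below, matches are counted by gene for the 9 genes and by window for the background, so the shares are not like for like. Gpx4 had 4 windows, some overlapping, and a match in any of them counted. Its CCACCC match was only in the window of start number 4. Its TGATAA match was in the overlapping windows of start numbers 2 and 3 and not in those of 1 and 4. Only the stretch of start number 3 is shown above, so it does not stand for all Gpx4 windows. Over the full windows, CCACCC was in 6 of the 9 genes (Cat, Gpx4, Prdx1, Prdx2, Prdx3 and Prdx5) and in 28.1% of all 32851 RefSeq windows of that length. CCAAT was in Cat, Gpx4, Sod1 and Sod2 and in 33.8% of all windows. TGACNNNGC was in Sod1 and Prdx1 and in 10.2% of all windows. Of the GATA motifs, TGATAA was in Gpx4 alone (7.94% of all windows) and AGATAA in none of the 9 (9.99%), and GTAAACA was in none (3.17%). No listed motif overlapped another in the stretches shown. A match is a run of letters and not a measured binding site.

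Counting without strand limits some values. Prdx2 overlaps Rnaseh2a by 181 bases and Junb by 351 bases on the opposite strand; both rose too, from 137 ± 10.3 to 367.2 ± 17.1 CPM and from 24.3 ± 1.19 to 74.82 ± 2.87 CPM (SD, n = 2), levels far under that of Prdx2. Sod1 overlaps Scaf4 by 650 bases, which stood at 27.47 and 56.5 CPM at 0 and 200 nM. Prdx5 overlaps Trmt112 by 409 bases, and Trmt112, at 72.81 and 62.96 CPM, was as abundant as Prdx5 itself, so the level of Prdx5 is uncertain. The annotation also holds copies named for Gpx4 and Prdx6; the table gave Prdx6b 0.3083 CPM at 0 nM and 0.3924 CPM at 200 nM. The longest identical run between the principal transcripts of any 2 of the 10 genes was 18 bases.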

How the data were processed

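The table the authors deposited holds raw counts by gene symbol for 16 Smart-seq2 libraries, a protocol without strand or molecular identifiers. The submitters' processing notes name bcl2fastq, STAR and mm10; versions, counting program and annotation were not given in the sources used here. Genes were kept by filterByExpr with dose as the group (10080 genes), scaled by TMM and fitted in edgeR 4.0.16 (R 4.3.3) by the robust quasi-likelihood test over all 16 libraries with dose as a factor. P-values were adjusted by Benjamini-Hochberg over all tested genes within each contrast, with a threshold of 0.05; the code was tested on simulated data. Standard errors are the log2 fold change divided by the root of F. Midpoints and pattern distances use log2 CPM with a prior count of 2. Replicates differed by more than sampling noise (chi-square per degree of freedom 1.65 to 3.75). Alternatives were DESeq2 1.42.0, other scalings, no filter, a replicate block, fits without robust dispersion or with the 2 doses alone, and leaving out each library. Named genes are the 10 enzymes, the 2 nearest genes of each and up to 4 genes with the highest mean CPM per list. Genes named outside this rule include Cybb, Slc7a11, Gata1 and the genes that overlap the enzymes. The enzymes and lists were chosen with earlier results of these data known. Results for some genes that this rule names are not reported here.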

Additional observations from a re-analysis of the deposited data

How the results depend on the processing

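Across the 70 fold changes of the 10 genes against 0 nM, library size alone changed the sign of 12. Of these, 6 were called neither way (Gpx1 and Gpx4 at 12.5 nM, Gpx1 and Prdx3 at 25 nM, Prdx5 at 100 and 150 nM), and 4 further calls were lost. The other 6 values with a changed sign were -0.11 for Sod1 at 75 nM (edgeR adjusted p = 0.00233), -0.019 for Sod1 at 100 nM (0.571), -0.11 for Prdx1 at 100 nM (0.00347), -0.00075 for Prdx3 at 150 nM (0.98), -0.10 for Prdx3 at 200 nM (0.00118) and -0.26 for Prdx5 at 200 nM (0.000496). Under that scaling, 2 genes were higher at 25 nM in place of 4, 5 higher at 100 nM in place of 8, 2 lower at 75 and at 100 nM in place of 1, 4 lower at 200 nM in place of 2, and 2 peaked or dipped in place of 1. Over all genes it gave 2819 higher and 5396 lower at 200 nM, against 4086 and 3977. At 12.5 nM, 1 gene, Prdx6, was called by DESeq2 and by the fit of the 2 doses alone, in place of 0. Leaving out 1 library at a time gave 0 to 1 genes higher at 12.5 nM and 2 to 4 at 25 nM, and 37 to 43 called steps against 40. Prdx5 was called at 150 nM without the first library at 150 nM (0.22, adjusted p = 0.0195). Numbers of replicates showed no strong pairing of the libraries. Over all tested genes, 28 correlations of deviations between same-numbered libraries ran from -0.0583 to 0.096, and 5 of 8 doses lay closer to their own number. Such deviations include count noise, so this check cannot show that the libraries were unpaired. With the replicate block, none of the 70 calls changed, and 4082 genes were higher and 3966 lower at 200 nM. Reads carry no molecular identifiers, so amplification adds error that counting does not show, and Prdx5, with the fewest counts, has the widest errors.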
